A study of Bos taurus with 2 samples.

Results

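Isolated CpGs are CpG dinucleotides with no other CpG nearby. Here they are the CpGs of the ampliconic long arm of the cattle Y chromosome that had no other CpG within 150 bp on either side. They were taken from 24 to 57.5 Mb of chromosome Y in the ARS-UCD2.0 assembly, leaving out 26 to 27.1 Mb, and at least 10 PacBio reads were required. The rule found 25136 of them among 287563 CpGs of this stretch, or 8.74%, and among 975164 CpGs measured by PacBio on the whole chromosome. That is 1 isolated CpG for every 1.29 kb of the 32.4 Mb examined. All isolated CpGs of the stretch passed the read minimum. Within the stretch the choice used positions and depth alone. The left-out interval is a domain known from its low methylation in these data, so the bounds of the stretch are not free of the methylation values.

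The samples were lung DNA of Bos taurus. For methylation, 1 library was read as PacBio HiFi reads and 1 by nanopore sequencing (Oxford Nanopore Technologies, ONT). The labels give the tissue only. The study assembled this Y chromosome from a fetus with a Wagyu sire and a Charolais dam, so the sequence is a Wagyu haplotype. With 1 library for each platform the groups hold no replicates, so no test was made and every difference below is a description of these libraries. CpGs are not replicates of an animal.

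In mammals a CpG is a site where methyl groups are added to cytosine on both strands and copied after replication by the maintenance methyltransferase. Methylated cytosine deaminates easily, so CpGs have become rare in most of the genome and stand alone in many places. The ampliconic part of a Y chromosome consists of long repeated blocks that carry testis gene families such as HSFY, ZNF280B and TSPY, and copies of a block lie in both directions.

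Isolated CpGs were low in methylation on both platforms. On PacBio their levels ran from 2.50% to 95.9% with a median of 30.8% and a mean of 34.8%, and the quartiles were 12.2% and 52.2%. On ONT, where a level is the mean of both strand rows of a CpG, they ran from 0% to 96.1% with a median of 25.1% and a mean of 29.2%. The quartiles were 12.9% and 42.6%. The 262427 other CpGs of the stretch had medians of 53.7% (PacBio) and 44.6% (ONT) and means of 52.3% and 44.3%. Isolated CpGs thus differed from the others by -17.5 points on PacBio and by -15.1 points on ONT. Many CpGs of the arm are copies of each other. When each spacing pattern (described below) was counted once, the differences were -12.0 points on PacBio and -10.003 points on ONT, while the levels of the isolated CpGs themselves stayed at 34.6% and 29.1%.

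**Figure D1:**
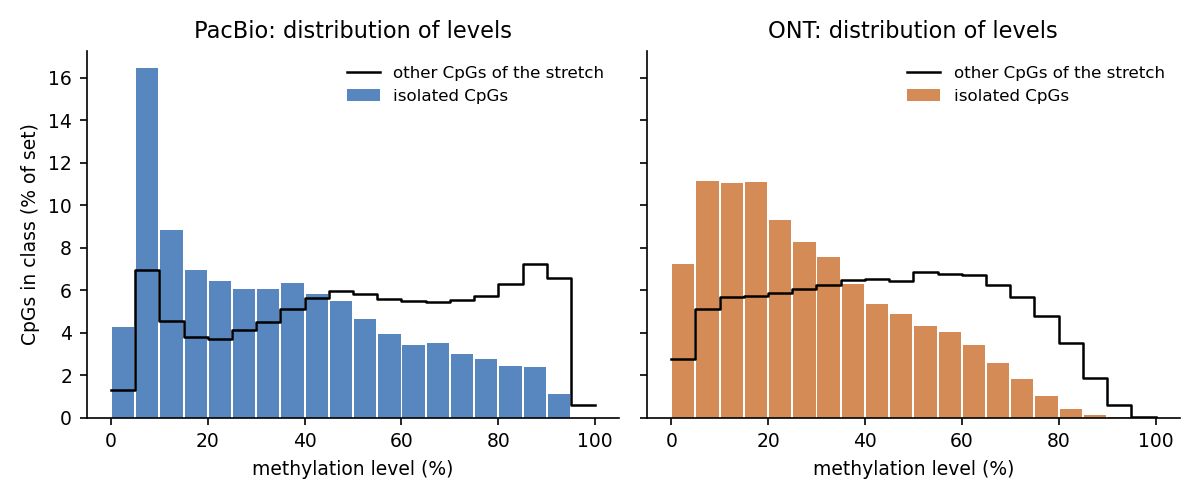
Share of CpGs in classes of 5 points of methylation level (%), for isolated CpGs (bars) and the other CpGs of the stretch (black line), on PacBio and ONT. Isolated CpGs pile up at the low end, with 36.5% of them under 20% on PacBio and 40.5% on ONT, while few reach 80%.

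Of the isolated CpGs, 7399 (29.4%) were under 20% on both platforms, against 12.8% of the other CpGs. Such a share was not particular to isolated CpGs. It was 28.4% where the nearest CpG lay at 51 to 100 bp and 25.4% at over 100 to 150 bp. Among isolated CpGs it was 23.9% at over 150 to 200 bp and from 32.3% to 34.5% in the farther classes. Other CpGs with a neighbour at 2 to 10 bp or 11 to 25 bp had only 1.07% and 4.65%. At least 80% on both platforms was reached by 110 isolated CpGs (0.438%), against 5.13% of the others. From 20% to under 80% lay 57.5% of the isolated CpGs on PacBio and 58.9% on ONT, smaller shares than the 62.6% and 74.6% of the other CpGs. Intermediate values of single sites carry wide counting error. The depth was 47 reads per isolated CpG in the median, with a 5th percentile of 35 and a 95th percentile of 60, and the other CpGs had a median of 46. At 47 reads, 14 modified ones (as the authors' model estimates them) stand for 29.8%, and the 95% interval by Wilson's method runs from 18.7% to 44.0%. With 2 modified reads it is 4.26% (1.17% to 14.2%). These intervals cover counting error only. ONT depth is unknown, since its values are percentages without read counts.

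PacBio depth moved slightly with the level. The isolated CpGs with the lowest depth, 20 to 44 reads, had mean levels of 36.0% (PacBio) and 29.7% (ONT). Those with the highest depth, 51 to 120 reads, had 33.5% and 28.5%. Without CpGs of extreme depth the difference between isolated and other CpGs was -17.4 points (PacBio) and -14.9 points (ONT), and with CpGs weighted by their reads -17.4 and -15.1 points.

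Single sites with at least 30 reads were ranked by the mean of their PacBio and ONT levels. The lowest by this mean, at chrY:32924929-32924930, had a PacBio level of 3.10% with 1 modified read of 54 (Wilson 95% interval 0.328% to 9.77%). It was listed at 0% on both ONT strand rows, and an ONT 0 may be a measured value or a missing call. The next lowest lay at chrY:50132913-50132914 and chrY:34425305-34425306, with 3.30% and 3.50% on PacBio, and were also listed at 0% on ONT. The highest by this mean lay at chrY:39177247-39177248, with 93.0% on PacBio, 39 of 41 reads modified (83.9% to 98.7%), and 96.1% on ONT. The second and the third highest, at chrY:33582452-33582453 and chrY:33588886-33588887, had 94.7% and 94.1% on PacBio and 93.6% and 93.7% on ONT. All 3 highest sites had their neighbours at 175 bp and 196 bp and were copies of one repeated site with 48 copies. None of these 6 sites lay in an annotated gene. The most remote site had no CpG for 1256 bp on one side and 1109 bp on the other. It lay at chrY:25024444-25024445 and had 6.60% on PacBio (43 reads) and 8.26% on ONT. The next most remote, at chrY:29272820-29272821 and chrY:28126469-28126470, had 37.3% and 12.7% on PacBio and 18.1% and 20.8% on ONT.

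Level was then compared with the distance to the nearest CpG, over all CpGs of the stretch. CpGs with a neighbour within 2 to 10 bp had mean levels of 71.1% (PacBio) and 62.2% (ONT). The means fell to 59.7% and 50.3% at 11 to 25 bp, to 43.5% and 36.2% at 26 to 50 bp, and to 35.5% and 28.4% at 51 to 100 bp. Each of these steps down was seen in 33 of 33 windows of 1 Mb on both platforms. Most of the fall along this axis therefore lay at distances shorter than the isolation rule. At over 100 to 150 bp, just outside the rule, the means were 36.3% and 29.9%.

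Within the isolated CpGs the level did not fall steadily with distance. The 11197 sites with a nearest CpG at over 150 to 200 bp had 38.5% on PacBio and 32.6% on ONT. They stood above the class of over 100 to 150 bp in 26 of 33 windows on PacBio and in 33 of 33 on ONT. At over 200 to 300 bp the means were lower, 32.2% and 26.4% over 9330 sites, and this step down was seen in 33 of 33 windows on both platforms. The 4007 sites at over 300 to 500 bp had 31.2% and 26.4%, and the 602 sites beyond that had 33.2% and 27.1%, with no steady order between windows. The rise at over 150 to 200 bp was also there when each spacing pattern was counted once, with 38.6% on PacBio and 32.4% on ONT, against 34.5% and 28.3% at over 100 to 150 bp and 31.5% and 26.6% at over 200 to 300 bp. In steps of 10 bp around the rule's limit, the 2140 CpGs with a neighbour at over 140 to 150 bp had 37.8% and 32.6%, and the 3172 with one at over 150 to 160 bp had 42.0% and 34.4%. The levels then went down to 34.0% and 29.4% at over 160 to 170 bp and up to 42.5% and 36.3% at over 170 to 180 bp, so these steps had no steady order.

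**Figure D2:**
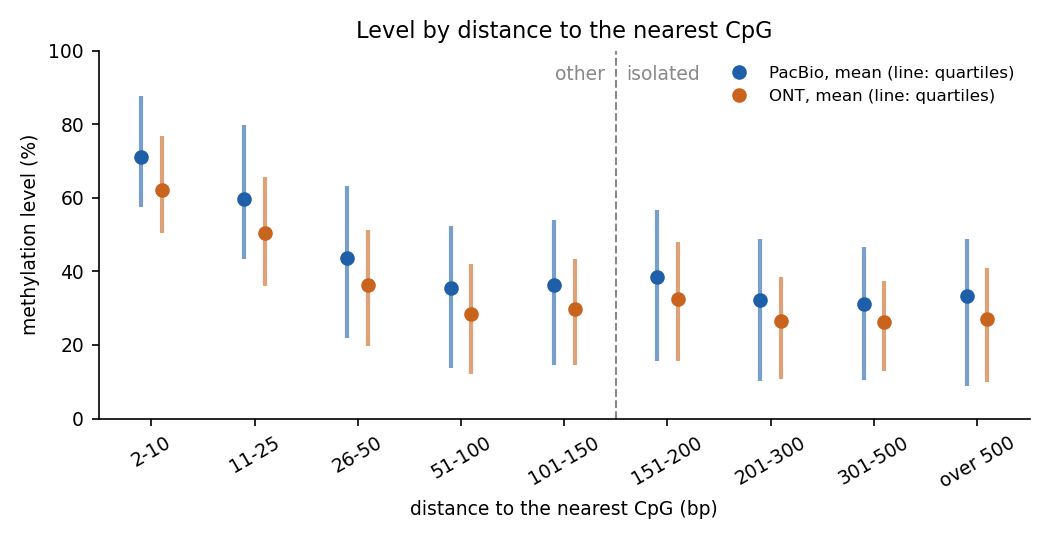
Methylation level (%) by distance to the nearest CpG (bp) for all CpGs of the stretch; points are means over CpGs, vertical lines run from the lower to the upper quartile, and the dashed line marks the isolation limit. Levels fall from 71.1% (PacBio) and 62.2% (ONT) at 2 to 10 bp to 35.5% and 28.4% at 51 to 100 bp, with a small rise at over 150 to 200 bp.

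The number of CpGs in the wider surroundings went with the level as well. Isolated CpGs with 5 to 9 other CpGs within 1 kb on either side had 31.1% on PacBio and 26.5% on ONT (8223 sites). Those with 10 to 19 had 36.4% and 30.2% (14051 sites), and those with 20 to 39 had 43.1% and 35.8% (1964 sites). The 777 sites with at most 4 had 27.8% and 24.9%. At the same count of CpGs within 1 kb the other CpGs were higher, but only slightly in the sparsest surroundings. With at most 4 they had 30.4% and 25.6% (424 sites), and with 5 to 9 they had 37.9% and 32.1%. With 10 to 19 they had 45.0% and 37.6%, and with 20 to 39 they had 56.3% and 47.2%. An exception to the trend were 121 isolated CpGs with 40 or more CpGs within 1 kb. They had 19.2% on PacBio and 18.1% on ONT and came from 27 spacing patterns, whereas the other CpGs in such surroundings had 70.9% and 62.2%. The neighbours on both sides were then considered. Isolated CpGs with both neighbours within 300 bp had 38.0% and 31.8%, those with 1 neighbour within and 1 beyond 300 bp had 34.0% and 28.4%, and those with both beyond 300 bp had 31.5% and 26.5%.

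How far the level of an isolated CpG resembled that of another CpG at a given distance was examined in steps of 25 bp up to 800 bp, a comparison added once the data had been seen. At over 150 to 175 bp Pearson's r across 7968 pairs was 0.476 on PacBio and 0.429 on ONT. It then fell, and at over 275 to 300 bp it was -0.0234 and -0.0351 across 9318 pairs. It rose again to 0.342 and 0.294 at over 350 to 375 bp, fell to -0.0718 and -0.124 at over 425 to 450 bp, and stood at 0.265 and 0.240 at over 525 to 550 bp. A smaller peak of 0.19 and 0.191 lay at over 575 to 600 bp. The next trough was at over 625 to 650 bp on PacBio, with -0.0662, and at over 600 to 625 bp on ONT, with -0.0967, and a further peak at over 675 to 700 bp had 0.238 and 0.235. Likeness between an isolated CpG and its surroundings thus went up and down with distance, and peaks and troughs lay within 1 step of each other on the platforms. On ONT the highest r was 0.464, at over 175 to 200 bp. With each repeated pair of spacing patterns counted once, r at over 150 to 175, over 350 to 375, over 525 to 550 and over 675 to 700 bp was 0.454, 0.331, 0.244 and 0.309 on PacBio and 0.427, 0.290, 0.228 and 0.311 on ONT. The typical gap in level was smaller at the peaks. On PacBio the median absolute difference of a pair was 16.0 points at over 150 to 175 bp and 28.9 points at over 425 to 450 bp. These correlations run across pairs of CpGs of one library, which share sites, reads and repeat copies.

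**Figure D3:**
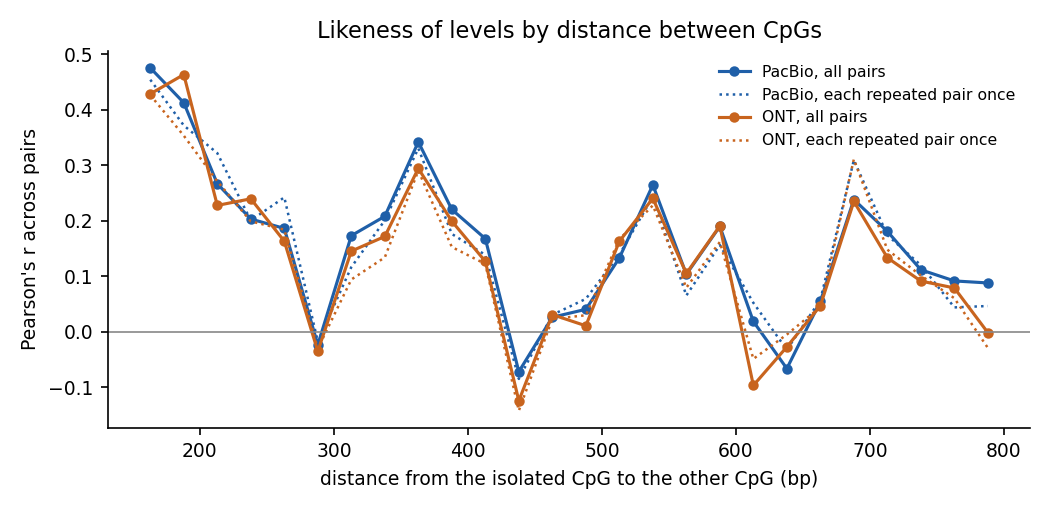
Pearson's r between the level of an isolated CpG and that of another CpG of the stretch, by the distance between them (bp, steps of 25 bp), for all pairs (points and solid lines) and with each repeated pair of patterns counted once (dotted), on PacBio and ONT. On PacBio peaks stand at over 150 to 175, over 350 to 375, over 525 to 550 and over 675 to 700 bp, on ONT the first is at over 175 to 200 bp, and on both r is below 0 at over 275 to 300 and over 425 to 450 bp.

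Along the arm the level of isolated CpGs was even. The mean over isolated CpGs was computed in 33 windows of 1 Mb, of which the one that starts after the left-out interval and the one at the end of the stretch were shorter. In the 30 windows from 28 Mb on, which held 388 to 841 isolated CpGs each, the PacBio mean ran from 32.6% to 37.2% with a median of 35.3%. The ONT mean ran from 26.9% to 31.2% with a median of 29.4%. The 3 windows before 28 Mb were lower, from 29.2% to 30.9% on PacBio and from 25.7% to 26.9% on ONT. The lowest window on both platforms was 25000001 to 26000000, where the 494 isolated CpGs had 29.2% (PacBio) and 25.7% (ONT). The highest was 48000001 to 49000000 on PacBio, with 37.2%, and 47000001 to 48000000 on ONT, with 31.2%. Isolated CpGs lay below the other CpGs in 33 of 33 windows on both platforms, by 14.9 to 32.4 points on PacBio and by 13.3 to 27.2 points on ONT. The widest gap was again at 25000001 to 26000000, where the other CpGs had 61.7% on PacBio and the window held 14363 of them. From 28 Mb on, the other CpGs had window means from 49.98% to 53.2% on PacBio.

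**Figure D4:**
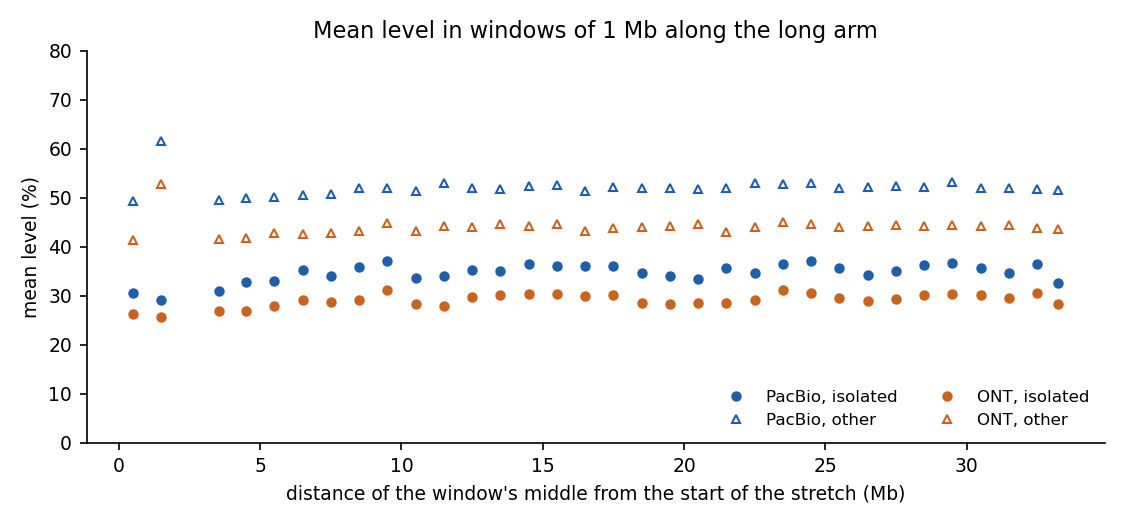
Mean methylation level (%) in windows of 1 Mb against the distance of the window's middle from the start of the stretch (Mb), for isolated CpGs (filled circles) and other CpGs (open triangles) on PacBio and ONT. Isolated CpGs lie below the other CpGs in 33 of 33 windows on both platforms.

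Many isolated CpGs, like most CpGs of the stretch, recurred. Sites that shared the distances to the next 2 CpGs on both sides, read in either direction, were taken as copies of one repeated site. No genome sequence was used, so the likeness of the copies' sequences was not checked. The 25136 isolated CpGs had 8899 such spacing patterns. Of these, 5929 patterns occurred once, and 19207 isolated CpGs (76.4%) belonged to patterns with at least 2 copies. The 1056 patterns with at least 5 copies held 14354 isolated CpGs (57.1%). Of the 262427 other CpGs, 205726 belonged to patterns with at least 5 copies, so isolated CpGs recurred in a smaller share than the others. By the isolation rule their patterns must match over longer distances, so these shares compare matches of unlike length. Distances had to match to the bp, so patterns such as 155-164-375-700 and 155-164-375-701 were counted apart. A site whose pattern occurred once is thus not shown to be without copies. The 5929 sites of such patterns had mean levels of 34.3% (PacBio) and 28.9% (ONT). The 14354 sites of patterns with at least 5 copies had like levels, 34.8% and 29.2%.

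Copies of one pattern had similar levels, and patterns differed widely. Pattern means ran from 3.46% to 92.3% on PacBio and from 2.01% to 85.0% on ONT. Over the 14354 sites the PacBio SD was 24.4 points, of which 9.49 points remained within patterns. The ONT SD was 19.9 points, and 5.71 points within patterns. Differences between patterns thus held 84.9% of the variance on PacBio and 91.7% on ONT. For the other CpGs the same shares were 87.0% and 92.5%, so this was not a property of isolated CpGs alone. Across the 1056 patterns the PacBio and ONT means had a Pearson's r of 0.922, as a description over patterns that share libraries. The spread between copies was set beside a binomial counting SD, which is only a guide, because the PacBio level is a model score and not a ratio of counts. The median SD over the copies of a pattern was 8.74 points on PacBio, against 6.32 points from binomial counting at the pattern's mean and median depth, and 839 of 1056 patterns lay above their counting SD. The others lay at or below it, among them the 48-copy pattern of the highest sites (175-409-196-374), with an SD of 1.67 points against 3.93 points. Deviations of single copies from their pattern's mean were only weakly shared by the platforms, with r of 0.119 across 14354 sites. Reads from near-identical copies can be placed on the wrong copy, and the part of this was not tested.

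Of the patterns with at least 5 copies, 375 had a PacBio mean under 20%, 277 from 20% to 40%, 216 from 40% to 60%, 155 from 60% to 80%, and 33 at least 80%. The low patterns held 4963 sites and the high ones 481. The median nearest distance in these 5 classes, from low to high, was 215, 204, 191.5, 207 and 174 bp. The mean nearest distance was 242.8, 227, 228, 221.6 and 201.1 bp, so both measures were longest in the lowest class and shortest in the highest.

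The 5 most frequent isolated sites show this over the length of the arm. The most frequent had its neighbours at 206 bp and 237 bp on one side and at 414 bp and 424 bp on the other. It occurred 88 times between 24340211 and 57079544, in 32 windows, with 44 copies in each direction. Its PacBio levels ran from 4.40% to 45.2% with a median of 26.4%, and its ONT levels from 0% to 20.5% with a median of 10.9%. The second, with nearest CpGs at 152 bp and 163 bp, had 78 copies from 3.80% to 38.6% on PacBio (median 11.5%) and from 9.26% to 31.0% on ONT (median 18.6%). ONT was the higher platform at this site. The third, with nearest CpGs at 158 bp and 229 bp, also had 78 copies. They ran from 48.3% to 90.5% on PacBio (median 71.2%) and from 42.8% to 77.1% on ONT (median 60.3%), so that no copy of the third site overlapped any copy of the second on either platform. The last pair of sites, with 74 copies each, share a gap of 443 bp and lie side by side in the same repeat. The one with its other neighbour at 180 bp had a median of 51.8% on PacBio and 36.3% on ONT, and the one with its other neighbour at 245 bp had 71.0% and 60.3%. Compared copy by copy, the latter was higher in 66 of 74 copies on PacBio, by 18.9 points ± 15.9 (mean and SD over copies), and in 73 of 74 on ONT, by 25.8 points ± 9.65. The sites of this pair thus had different levels in most copies, while their ranges over all copies overlapped. Other neighbouring sites were not compared copy by copy.

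**Figure D5:**
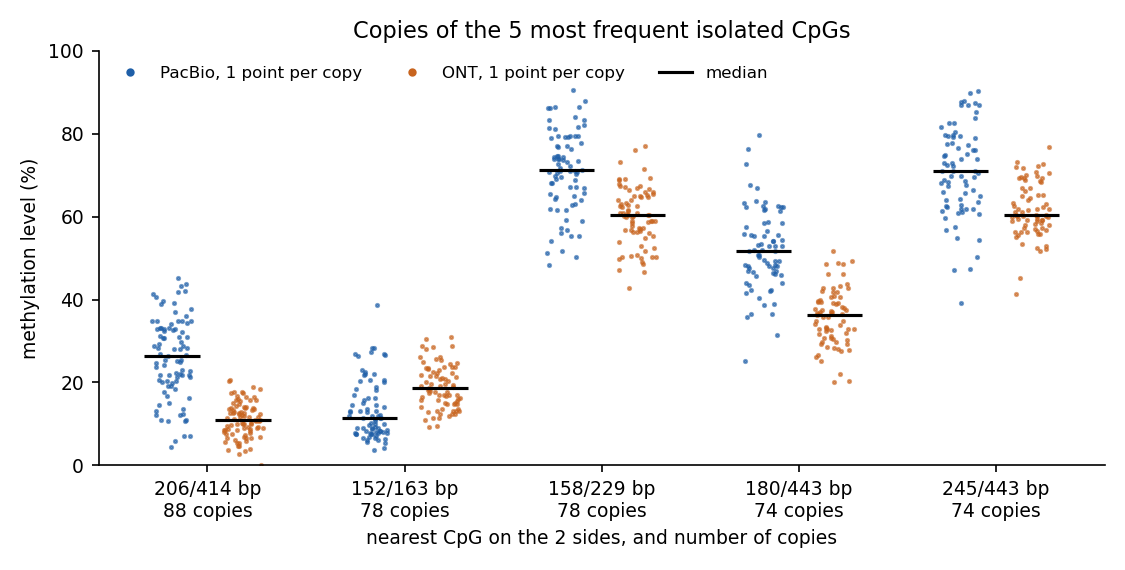
Methylation level (%) of every copy of the 5 most frequent isolated CpGs, labelled by the distances to the nearest CpG on their 2 sides and the number of copies; each point is 1 copy, left PacBio and right ONT, and black bars are medians. Copies of a site cluster around its own level, with PacBio medians from 11.5% to 71.2%.

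Part of the drift along the arm was seen within patterns. Relative to the mean of their own pattern, repeated isolated CpGs of the window that starts after the left-out interval had mean deviations of -2.88 points (PacBio) and -2.28 points (ONT) over 214 sites. The next window, from 28000001 to 29000000, had -1.88 and -2.05 points over 394 sites. In the first window of the stretch, where 42 of the 796 isolated CpGs belonged to patterns with at least 5 copies, the values were 1.90 and 1.60 points. In the second, 25000001 to 26000000, they were -3.56 and -1.53 points over 44 such sites.

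In points, the mean difference between the platforms was smaller at isolated CpGs than at the others, and the site-by-site correlation was lower. The levels were lower too, with means of 34.8% (PacBio) and 29.2% (ONT) against 52.3% and 44.3% at the others. The smaller difference in points therefore does not show that the platforms were closer relative to the level. ONT minus PacBio had a mean of -5.66 points at isolated CpGs and of -8.09 points at the others, and ONT was the lower platform at 65.1% of the isolated CpGs and at 73.0% of the others. Site by site, Pearson's r was 0.840 and Spearman's rho 0.827 over the isolated CpGs, and 0.865 and 0.866 over the others. The SD over isolated CpGs was 24.7 points (PacBio) and 19.8 points (ONT), against 26.99 and 23.3 points over the others. These correlations thus compare sets of unlike spread. ONT exceeded PacBio by at least 10 points at 10.2% of the isolated CpGs, against 8.34% of the other CpGs. The direction depended on the site. Of the 1056 repeated patterns, 274 (25.9%) had a higher mean on ONT, by at least 10 points in 28 of them, and 276 had a mean on ONT at least 10 points lower.

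The ONT strand rows had nearly equal means at isolated CpGs, 29.0% on the row taken as the plus strand and 29.4% on the other, with a median absolute gap of 7.41 points per site. The gap followed the repeat, not the chromosome. Of 394 patterns with at least 5 copies in each direction, 288 had mean gaps of opposite sign in copies of opposite direction, and r between the directions was -0.848. The levels themselves did not turn with the direction. Between the directions, pattern means differed by a median of 2.51 points (PacBio) and 1.79 points (ONT), regardless of sign.

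Few CpGs of the stretch lay in genes. Inside protein-coding genes were 1.60% of the isolated CpGs and 3.85% of the others, and outside all genes 97.8% and 95.3%. The gene table of the assembly lists 99 genes in or reaching into the stretch, 80 of them protein-coding, and 58 genes held at least 1 isolated CpG. The 403 isolated CpGs inside protein-coding genes had mean levels of 33.1% ± 23.1 (PacBio) and 28.04% ± 17.8 (ONT) (SD over CpGs). The 24593 outside all genes had 34.9% ± 24.7 and 29.2% ± 19.9. The 140 isolated CpGs inside other genes only had 28.9% and 25.8%. The other CpGs inside protein-coding genes had 66.6% on PacBio and 57.5% on ONT, those inside other genes only 49.7% and 41.3%, and those outside all genes 51.8% and 43.7%. Within 1 kb of the ends of protein-coding genes, 119 isolated CpGs had 40.05% and 31.8%, and 4938 other CpGs had 66.1% and 56.7%.

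Of genes with a name other than a locus number, ZNF280BY, a copy of the bovine zinc finger family ZNF280B at chrY:28864373-28875413, was the only one to hold isolated CpGs. Its 9 isolated CpGs ran from 6.10% to 56.2% on PacBio with a median of 15.4%, and from 7.80% to 46.9% on ONT with a median of 18.4%. Its 79 other CpGs had mean levels of 55.8% (PacBio) and 44.1% (ONT). HSFY2, a heat shock factor of the testis, held none. The protein-coding gene with the most isolated CpGs was LOC132344552, at chrY:54060688-54247045, which is also the longest in the stretch. Its 131 isolated CpGs had mean levels of 38.6% (PacBio) and 31.04% (ONT), against 51.2% and 43.4% for its 1448 others. LOC132344710, at chrY:54739626-54798897, had 33.9% and 29.2% over 42 isolated CpGs, against 56.3% and 48.2% over 539 others. LOC132344706, at chrY:51039084-51094364, had 29.02% and 23.2% over 36, against 56.3% and 47.2% over 487. In each of these genes the isolated CpGs had the lower mean.

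The same rule was applied to the rest of the chromosome. The pseudoautosomal region (PAR), which still recombines with the X chromosome, had 1398 isolated CpGs with mean levels of 73.3% (PacBio) and 63.1% (ONT). There the isolated CpGs differed from the others by only -1.60 and -1.88 points. The male-specific short arm had 1974 isolated CpGs at 65.2% and 56.2%, with differences from the others of -11.1 and -9.66 points. The long arm up to 24 Mb had 2188 at 37.1% and 30.5%, with differences of -26.8 and -14.3 points. The interval left out, 26 to 27.1 Mb and known from its low methylation, had 860 at 30.4% and 24.8%. The arm beyond 57.5 Mb had 1564 at 52.0% and 42.9%. The centromere had 0 isolated CpGs among 161718. With 1 library per platform these regional differences were not tested. PacBio depth differed too, with a median of 82 reads per isolated CpG in the PAR.

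Spacing patterns of the stretch recurred mainly in the left-out interval and beyond 57.5 Mb. The left-out interval shared 265 patterns. Averaged over these patterns, the PacBio level was 29.5% there and 34.3% in the stretch, and the ONT level 23.98% and 28.4%. The PacBio level was lower there in 176 of the 265 patterns and the ONT level in 193. This interval is known from its low methylation in these data, so a lower level there was built into its choice. Beyond 57.5 Mb 213 patterns were shared, with 41.9% there and 36.8% in the stretch on PacBio, and 35.3% and 30.5% on ONT. PacBio was lower beyond 57.5 Mb in 76 of the 213 patterns and ONT in 64. Across shared patterns r between the places was 0.841 on PacBio and 0.906 on ONT for the left-out interval, and 0.871 and 0.916 beyond 57.5 Mb. The male-specific part of the short arm shared 11 patterns, with 64.6% there and 45.1% in the stretch on PacBio, and 55.3% and 38.3% on ONT. The long arm up to 24 Mb shared 3, with 65.5% and 58.3% on PacBio, and 59.98% and 46.5% on ONT. The PAR shared 0.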

How the data were processed

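For PacBio, the authors estimated methylation per CpG of HiFi reads with Primrose, aligned with pbmm2 and summarised both strands together with pb-CpG-tools. The deposited PacBio values hold per CpG the percent modified (a score), its read count, and model-estimated counts of modified and unmodified reads. For ONT, the authors used Dorado, Winnowmap and modbam2bed, which dropped calls between thresholds. The deposited ONT values are a percent per strand row without read counts, so no Fisher's exact test per site could be run, and an ONT 0 may be a missing call.

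The PacBio coordinates run opposite to the assembly. Positions were 59476288 minus the PacBio start, and the ONT start plus 20555 for the lower row of a CpG. Every PacBio CpG then had both ONT rows. The lower row was taken as the plus strand by assumption. The PacBio level was the score and each CpG had equal weight. Members, lists and comparisons were chosen with earlier results of these data known. Copies were CpGs sharing the distances to the next 2 CpGs on either side. The sites named were the 3 most remote, the 3 lowest and 3 highest with at least 30 reads, and the 5 patterns with the most copies; the genes named were those with a name and the 3 protein-coding genes with the most members. No genome sequence was used, so bases around isolated CpGs were not analysed here. Gene positions came from the RefSeq table of ARS-UCD2.0. Alternatives covered depth, isolation distance, weighting, strand rows, zeros, window size and pattern definition. Calculations ran in Python 3.11.15 with pandas 2.3.3, numpy 2.4.6 and scipy 1.17.1, figures were drawn with matplotlib 3.10.9, and the scripts were tested on simulated data.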

Additional observations from a re-analysis of the deposited data

How the results depend on the processing

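No value changed sign under any alternative, and isolated CpGs were below the others in every window under each alternative for which windows were counted, which leaves out the weighting by reads and the patterns counted once. A level, difference or share of variance was taken as moved if it changed by more than a 95% binomial half-width with CpGs as trials. Copies of a repeat in 1 library are not independent trials, so this is a yardstick and not a test. Counts of CpGs under 20% and of windows were judged by their ratio to the main count, a looser rule. Most alternatives left levels and differences within the half-width. Among them were weighting by reads, single ONT strand rows, extreme depth left out, estimated counts, and the left-out interval included. The count of isolated CpGs under 20% on both platforms, 7399 in the main setting, was 7567 with estimated counts. It was 7232 with the ONT plus-strand row and 7138 with the minus-strand row. Minimums of 4 or 20 reads kept the same 25136 isolated CpGs, so those levels could not change. An isolation distance of 100 bp gave 35.5% on PacBio, differences from the other CpGs of -18.3 (PacBio) and -16.0 (ONT) points and 12992 CpGs under 20% on both platforms. A distance of 250 bp gave 31.2% and 25.98%, differences of -20.2 and -17.5 points and 2834 such CpGs. A distance of 500 bp left 602 CpGs, with 33.2% and 27.1%, an ONT difference of -15.9 points and 207 such CpGs. Of the CpGs kept at 100, 150, 250 and 500 bp these were 27.6%, 29.4%, 34.2% and 34.4%. Without CpGs with an ONT row at 0, 5.08% of the isolated ones, the ONT level was 30.5%, and 6283 of 23858 isolated CpGs were under 20% on both platforms. Windows of 500 kb put isolated CpGs lower in 65 of 65 on PacBio and 65 of 65 on ONT. Counting each spacing pattern once, chosen after the data were seen, gave differences of -12.0 and -10.003 points. Patterns from 1 CpG on either side held 82.6% of the PacBio variance and 89.1% of the ONT variance. No paired analysis was possible because each platform has 1 library. ONT depth is unknown, so ONT errors cannot be given.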
